A study of Schizosaccharomyces pombe with 8 samples.

Results

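ATP-dependent chromatin remodelers use the energy of ATP hydrolysis to slide, evict, space or exchange nucleosomes. Their motor subunits belong to the Snf2 family of ATPases. The transcripts of 10 such motor subunits of the fission yeast *Schizosaccharomyces pombe* were followed by gene name: *hrp1* and *hrp3*, which encode CHD1-type remodelers, *snf22* and *snf21*, which encode the ATPases of the SWI/SNF and RSC complexes, the Fun30-type genes *fft1*, *fft2* and *fft3*, *ino80* and *swr1*, which encode the ATPases of the complexes of the same names, and *mit1*, which encodes the ATPase of the SHREC silencing complex. All 10 of 10 were found among the 5165 genes with values, and all 10 passed the minimum mean of 10 normalized counts that left 5019 genes for testing. CHD1-type enzymes space nucleosomes over transcribed genes, SWI/SNF and RSC open promoters, Fun30-type enzymes maintain silent chromatin, SWR1 deposits the histone variant H2A.Z, INO80 also acts on H2A.Z nucleosomes, and SHREC joins a remodeler to a histone deacetylase. Rearrangement of nucleosomes at stress genes accompanies the transcriptional response of yeast to oxidants.

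The cells compared were the wild-type strain 972 (WT) and strain RF14 (Δ*top1*), in which kanMX6 replaced *top1*, the gene for DNA topoisomerase I. Both were grown in YE5S rich medium at 30 °C to an OD600 of 0.5 and were left untreated or were given 1 mM H2O2 for 30 min. Each of the 4 groups had 2 biological replicates, poly(A) RNA was sequenced as reads of 50 bases, and each genotype was represented by 1 strain. The question for these genes was whether their transcripts changed with H2O2, with the loss of Top1, or differently with H2O2 when Top1 was absent.

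Reads on genes came to between 16090015 and 19899720 per library, and 1 read was worth 0.815 to 1.242 normalized counts, which are reads scaled by the size factor DESeq2 gives each library. The *top1* transcript itself, which checks the strain labels, was at 1967 and 2150 normalized counts in untreated WT, 2013 and 2513 in treated WT, 309 and 286 in untreated Δ*top1*, and 244 and 244 in treated Δ*top1*. Every Δ*top1* library was below every WT library. The sums of normalized counts per library were 15174360 to 16345769 without H2O2 and 17657867 to 20768094 with it, so a scaling to equal sums lowers the treated libraries. That rescaling moved the median gene by -0.37 on the log2 scale in the WT comparison and by -0.20 in the Δ*top1* comparison, and scaling to the upper quartile moved it by -0.29 and -0.23. In bulk RNA, fewer cells of a type and less RNA per cell cannot be told apart.

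Differences below are on the scale of log2(normalized count + 1), from limma with all 8 libraries in the fit. Genes were called at a Benjamini-Hochberg adjusted p under 0.1 over the 5019 genes tested. An exact permutation of 2 against 2 libraries has 0.333 as its smallest two-sided p, so limma's moderated spread carries the test.

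Promoters are shown for the pair of members that fell most with H2O2 (*hrp1* and *fft1*), the member that rose most in WT (*swr1*) and the only member with a match to a searched motif (*snf22*). They are the 250 bases before the annotated transcript start in RefSeq ASM294v3, 5′ to 3′ on the gene's strand, and capitals mark the motif TGACGT. That motif is the core of the site bound by Atf1, the main stress transcription factor of fission yeast. The positions are chrI:2194571-2194820 on the plus strand for *hrp1*, chrI:1415125-1415374 on the minus strand for *fft1*, chrIII:2178241-2178490 on the minus strand for *snf22* and chrI:5281408-5281657 on the minus strand for *swr1*.
hrp1: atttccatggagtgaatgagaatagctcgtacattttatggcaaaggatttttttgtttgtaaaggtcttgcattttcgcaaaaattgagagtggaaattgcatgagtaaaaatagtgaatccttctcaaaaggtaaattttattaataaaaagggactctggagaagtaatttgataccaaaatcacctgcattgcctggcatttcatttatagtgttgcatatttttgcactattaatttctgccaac
fft1: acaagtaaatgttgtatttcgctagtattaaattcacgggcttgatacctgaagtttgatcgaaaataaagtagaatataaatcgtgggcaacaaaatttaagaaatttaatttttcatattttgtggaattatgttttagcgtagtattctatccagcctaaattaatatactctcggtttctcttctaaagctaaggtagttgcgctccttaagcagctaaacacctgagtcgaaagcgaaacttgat
snf22: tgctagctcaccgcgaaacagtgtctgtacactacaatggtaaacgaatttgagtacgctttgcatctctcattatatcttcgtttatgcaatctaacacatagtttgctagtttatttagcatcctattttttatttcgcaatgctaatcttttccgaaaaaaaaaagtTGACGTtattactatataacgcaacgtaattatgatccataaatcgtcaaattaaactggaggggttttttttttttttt
swr1: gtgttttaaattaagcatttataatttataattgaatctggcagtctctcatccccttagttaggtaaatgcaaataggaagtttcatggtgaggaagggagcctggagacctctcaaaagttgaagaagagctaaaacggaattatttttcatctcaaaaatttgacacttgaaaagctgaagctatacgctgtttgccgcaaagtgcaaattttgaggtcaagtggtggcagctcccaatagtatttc
The motif TGACGT, searched on both strands (ACGTCA is its reverse complement), was in 1 of 10 member promoters and in 5.56% of 5128 promoters of the same length. In *snf22* its first base lay 80 bases before the start. The motif ACGCGT, the core of the site of the G1/S factor MBF, was in 0 of 10 members and in 2.63% of all promoters. The motif CAGTCACA, known as HomolD, was in 0 of 10 members and in 2.61% of all promoters. The absence of a match says only that these letters are not in the window.

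Read per kilobase of annotated transcript, which allows levels to be compared between genes, *fft3* was the most abundant member in untreated WT, at 960 ± 103 normalized counts per kb (SD, n = 2), and *mit1* the least, at 132 ± 0.055. The other 8 members lay between 366 and 566 normalized counts per kb. *hrp1* was the next after *fft3*, and its replicates did not overlap those of *fft3*. Below *hrp1* the order was *snf21*, *fft2*, *ino80*, *fft1*, *hrp3*, *swr1*, *snf22* and *mit1*, and each gene overlapped the next except *ino80* with *fft1* and *snf22* with *mit1*. The replicates of *hrp3*, at 323 and 433, also overlapped those of *ino80*. Among the 5129 genes with an annotated length, *fft3* was at percentile 64.4 of the level per kb and *mit1* at percentile 9.65.

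After H2O2 the order in WT was different below *fft3*. *swr1* moved from place 8 to place 2, at 553 ± 49.3 normalized counts per kb, and *hrp3* from place 7 to place 3, at 496 ± 78.8. *hrp1* moved from place 2 to place 8, at 248 ± 22.7, and *fft1* from place 6 to place 9, at 174 ± 6.79. *fft3* stayed first, at 760 ± 70.8, and *mit1* stayed last, at 124 ± 1.32. The replicates of *hrp3*, at 440 and 552, overlapped those of *swr1* and spanned those of *snf21* and *ino80*. In treated Δ*top1* the places after *fft3* went to *snf21* at 571 ± 5.42, *ino80* at 559 ± 5.89, *hrp3* at 556 ± 46.7 and *swr1* at 552 ± 17.0, and the replicates of *hrp3*, at 523 and 589, spanned those of *snf21*, *ino80* and *swr1*.

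**Figure D1:**
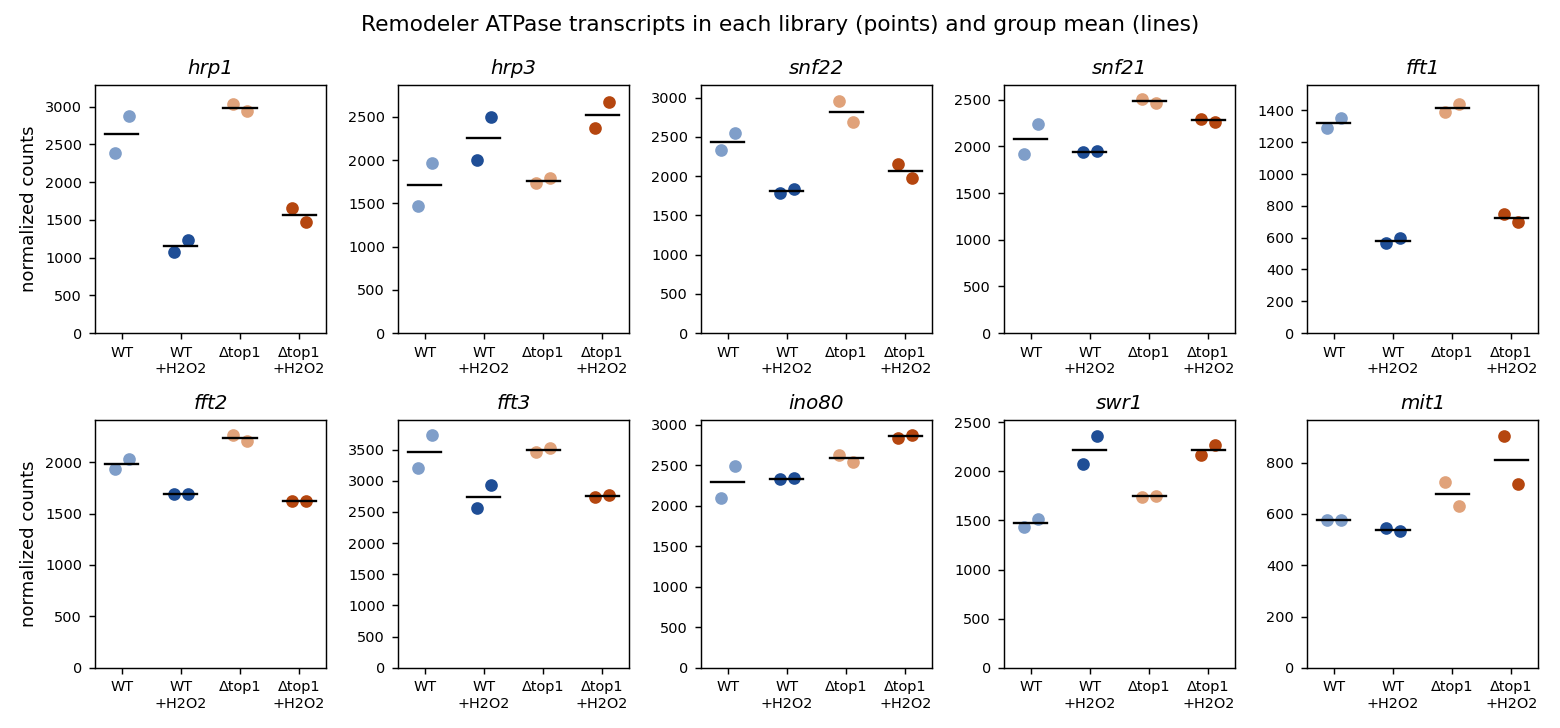
Normalized counts of the 10 remodeler genes (y axis of each panel, from 0) in the 4 groups (x axis), with a point for each library and a line for the mean of the 2 replicates. *hrp1* and *fft1* are lower in every library with H2O2 than in any without it, whereas *swr1* is higher in every library with H2O2.

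With H2O2, 5 remodeler transcripts fell and 2 rose in WT, and the same 7 genes were called in the same directions in Δ*top1*. Across all genes tested, 36.4% were called higher and 35.6% lower in WT, and 35.9% higher and 34.9% lower in Δ*top1*. The members' counts of 2 higher and 5 lower of 10 therefore stand against a background in which most genes were called. Groups that do not overlap were as common. In WT both treated libraries were above both untreated ones in 2 members and below them in 6, beside 40.9% and 40.7% of all genes. In Δ*top1* they were above in 3 members and below in 6, beside 42.4% and 42.7% of all genes. The median member difference was -0.16 in WT and -0.23 in Δ*top1*, beside 0.0028 and -0.0019 over all genes. On scalings to equal totals or to the upper quartile, 8 members were called lower in WT and 1 higher, beside 56.2% of all genes lower and 21.3% higher with equal totals, and 52.5% and 24.1% with the upper quartile.

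On the deposited scale the CHD1-type pair moved in opposite directions. *hrp1* was at 2384 and 2879 normalized counts in untreated WT and 1079 and 1228 after H2O2, and at 3034 and 2938 in untreated Δ*top1* and 1662 and 1474 after H2O2. All 4 treated libraries were below all 4 untreated ones. The fall was 2.27-fold in WT (log2 -1.19, SE 0.12, adjusted p = 3.8e-05, limma) and 1.91-fold in Δ*top1* (log2 -0.93, adjusted p = 0.00015).

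*hrp3* was at 1468 and 1967 in untreated WT and 1998 and 2503 after H2O2, and at 1731 and 1790 in untreated Δ*top1* and 2373 and 2673 after H2O2. Every treated library of *hrp3* was above every untreated one, though the gap in WT was narrow, from 1967 to 1998. The rise was 1.32-fold in WT (log2 0.40, SE 0.15, adjusted p = 0.0497, limma) and 1.43-fold in Δ*top1* (log2 0.52, adjusted p = 0.017). In WT the call was lost when the libraries were scaled to equal totals (log2 0.02, adjusted p = 0.88, limma). It was also lost on upper quartile scaling (0.10, adjusted p = 0.54), on quantile normalization (0.22, adjusted p = 0.24) and with only the 2 compared groups. The same held without untreated replicate 1 (0.19) or treated replicate 2 (0.23) of WT, so the WT call depends on the deposited scale and on single libraries. In Δ*top1* the call was lost on upper quartile scaling and without treated Δ*top1* replicate 2.

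A ratio of 2 genes within a library does not depend on how libraries are scaled, so the pair was also read that way, a choice made after the values were seen. The *hrp3*/*hrp1* ratio of normalized counts was 0.616 and 0.683 in untreated WT and 0.571 and 0.609 in untreated Δ*top1*. After H2O2 it was 1.85 and 2.04 in WT and 1.43 and 1.81 in Δ*top1*. Untreated cells thus held more *hrp1* than *hrp3* reads in every library, and treated cells more *hrp3* than *hrp1* reads in every library.

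Of the SWI/SNF and RSC motors, the SWI/SNF gene fell. *snf22* was at 2333 and 2552 in untreated WT and 1785 and 1839 after H2O2, and at 2955 and 2690 in untreated Δ*top1* and 2155 and 1977 after H2O2. Within each strain the groups did not overlap. In limma the differences were log2 -0.43 in WT (SE 0.09, adjusted p = 0.0029) and -0.45 in Δ*top1* (SE 0.09, adjusted p = 0.0023), that is 25.7% and 26.8% below untreated cells.

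*snf21*, which is essential in fission yeast, did not pass the test in either strain. It was at 1923 and 2238 in untreated WT and 1938 and 1950 after H2O2, and at 2503 and 2460 in untreated Δ*top1* and 2295 and 2264 after H2O2. The WT groups overlapped. The difference was -0.09 in WT (95% confidence interval -0.30 to 0.11) and -0.12 in Δ*top1* (-0.33 to 0.08). It was called lower in both strains when the libraries were scaled to equal totals (-0.47 in WT, -0.32 in Δ*top1*), to the upper quartile or by quantiles, and in WT without untreated WT replicate 1 (-0.20, adjusted p = 0.083, limma), so no direction is given on the deposited scale. The *snf21*/*snf22* ratio was 0.824 to 0.915 in the untreated libraries and 1.06 to 1.145 in the treated ones.

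All 3 Fun30-type genes fell with H2O2 in both strains, by different amounts. *fft1* was at 1287 and 1354 in untreated WT and 564 and 596 after H2O2, and at 1390 and 1443 in untreated Δ*top1* and 750 and 700 after H2O2. This was a fall of 2.27-fold in WT (log2 -1.19, SE 0.09, adjusted p = 6.9e-06, limma) and of 1.95-fold in Δ*top1* (log2 -0.97, adjusted p = 2.0e-05), with no overlap between treated and untreated libraries.

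*fft3*, which protects silent chromatin from euchromatin assembly, was at 3204 and 3731 in untreated WT and 2565 and 2927 after H2O2, and at 3456 and 3525 in untreated Δ*top1* and 2735 and 2766 after H2O2. In limma the difference was -0.34 in WT (SE 0.10, adjusted p = 0.017), as it was in Δ*top1* (-0.34, adjusted p = 0.015). In WT the call was lost without untreated replicate 2 or treated replicate 1 of WT. The *fft3*/*fft1* ratio was between 2.44 and 2.75 in the untreated libraries and between 3.65 and 4.91 in the treated ones.

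*fft2* was at 1932 and 2034 in untreated WT and 1693 and 1689 after H2O2, and at 2265 and 2208 in untreated Δ*top1* and 1622 and 1619 after H2O2. In limma it fell in both strains, with differences of -0.23 in WT (SE 0.07, adjusted p = 0.023) and -0.46 in Δ*top1* (SE 0.07, adjusted p = 6.1e-04). At least 2-fold falls with a call were seen for 2 members in WT, *hrp1* and *fft1*, beside 11.3% of all genes, and for 0 members in Δ*top1*, beside 10.8%.

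The gene for the H2A.Z-depositing motor rose. *swr1* was at 1429 and 1515 in untreated WT and 2079 and 2358 after H2O2, and at 1735 and 1752 in untreated Δ*top1* and 2167 and 2264 after H2O2. All 4 treated libraries were above all 4 untreated ones. The rise was 1.505-fold in WT (log2 0.59, SE 0.09, adjusted p = 4.1e-04, limma) and 1.27-fold in Δ*top1* (log2 0.35, adjusted p = 0.0078). The call in Δ*top1* was lost when the libraries were scaled to equal totals (log2 0.14, adjusted p = 0.16) or to the upper quartile.

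*ino80* was at 2100 and 2493 in untreated WT and 2329 and 2344 after H2O2, and at 2629 and 2542 in untreated Δ*top1* and 2836 and 2878 after H2O2. It did not pass the test in WT (0.03, 95% confidence interval -0.18 to 0.24) or in Δ*top1* (0.14, -0.07 to 0.36). Scaled to equal totals it was called lower in WT, at log2 -0.34, so no direction is given for it. The *swr1*/*ino80* ratio was 0.607 to 0.689 in the untreated libraries, 0.892 and 1.01 in treated WT, and 0.764 and 0.787 in treated Δ*top1*.

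*mit1* was at 577 and 576 in untreated WT and 543 and 535 after H2O2, and at 727 and 632 in untreated Δ*top1* and 903 and 715 after H2O2. Neither difference passed the test (-0.10 in WT, 95% confidence interval -0.39 to 0.20, and 0.25 in Δ*top1*, -0.05 to 0.54). The treated Δ*top1* replicates of *mit1* stood further apart than those of any other group of this gene, with an SD of 133 around a mean of 809. In Δ*top1* it was called higher with quantile normalization (0.32) and without treated replicate 2 (0.41), and in WT it was called lower with equal totals (-0.47) and the upper quartile (-0.39), so no direction is given.

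**Figure D2:**
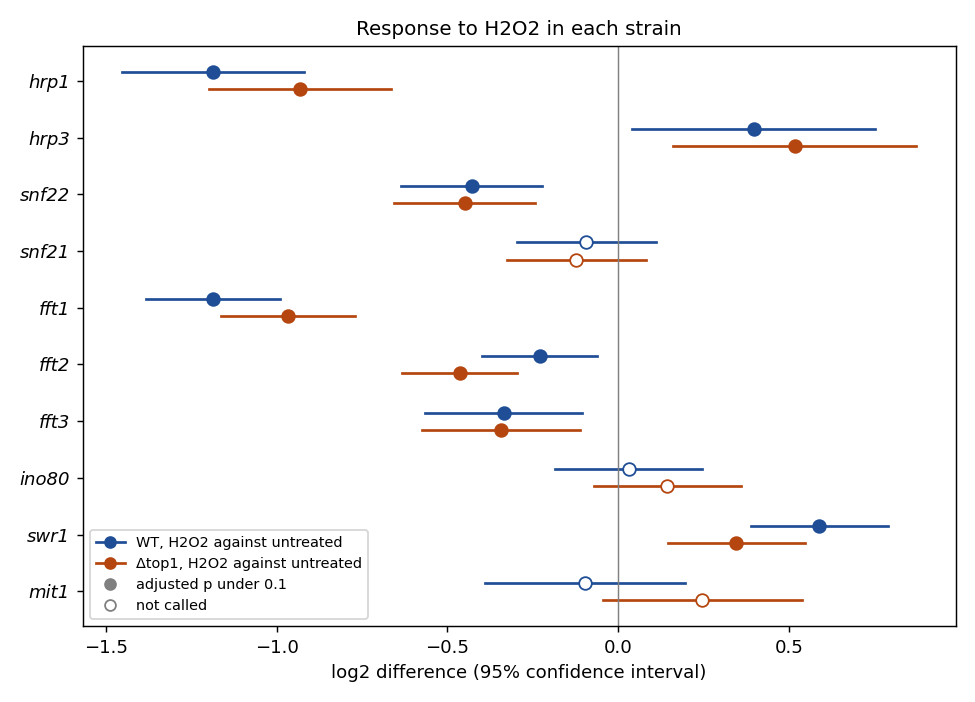
Log2 difference between H2O2 and untreated cells (x axis) for each remodeler gene (y axis) in WT (blue) and Δ*top1* (orange), with lines for the 95% confidence interval and filled points for an adjusted p under 0.1. *hrp1* and *fft1* lie near -1.19 in WT, and *swr1* and *hrp3* lie to the right of 0 in both strains.

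**Figure D3:**
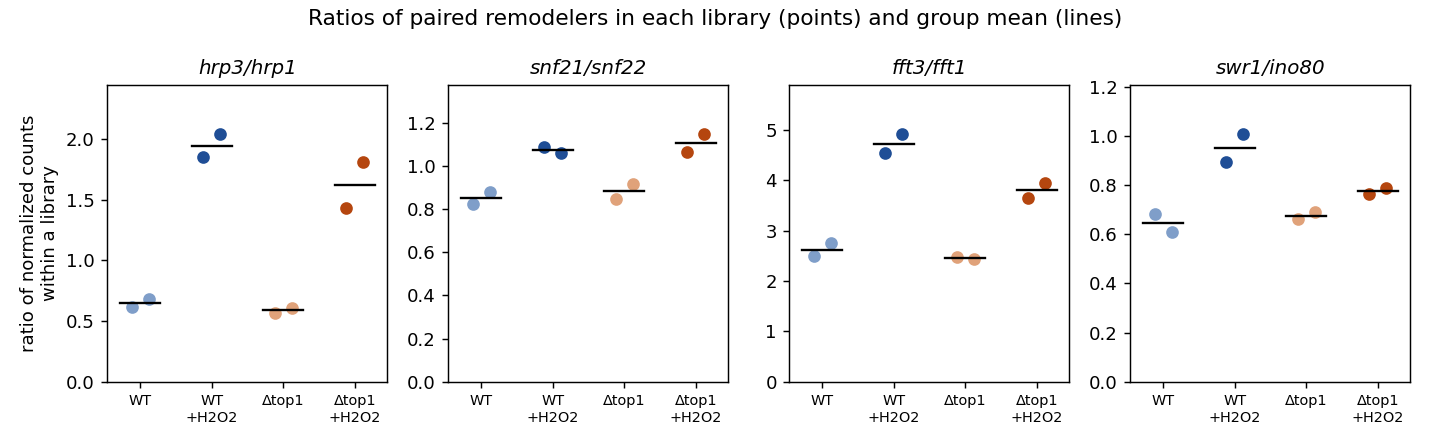
Ratio of normalized counts within a library (y axis, from 0) for 4 pairs of remodeler genes in the 4 groups (x axis), with a point for each library and a line for the mean. The *hrp3*/*hrp1* ratio is 0.571 to 0.683 in untreated and 1.43 to 2.04 in treated libraries.

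Without H2O2, no remodeler was called different between the strains. The limma count was 0 of 10, beside 0.279% of all genes called higher and 0.339% called lower in Δ*top1*. At an unadjusted p under 0.05 it was 4 of 10, all higher in Δ*top1* (*snf21*, *snf22*, *fft2* and *swr1*), beside 2.99% of all genes higher and 2.37% lower at that threshold, and edgeR and DESeq2 on the recovered reads also called 0 of 10. The fitted differences of the 10 members ran from 0.01 for *fft3* to 0.26 for *snf21*, with a median of 0.18 beside 0.01 over all genes, and adjusted p of 0.75 to 0.99. In 8 of 10 members both Δ*top1* libraries were above both WT libraries, an arrangement seen in 20.7% of all genes tested. The sign of the smallest differences, *fft3* and *hrp3*, turned when a library was left out. The members are not independent of each other, since all were read from the same 4 libraries.

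After H2O2, 5 of the 10 remodelers were higher in Δ*top1* than in WT and 0 were lower, beside 17.1% of all genes higher and 14.7% lower. The treated libraries compared are those listed with each gene above. *mit1* showed the largest difference, 1.49-fold (log2 0.58, SE 0.13, adjusted p = 0.020, limma). *hrp1* followed at 1.36-fold (log2 0.44, SE 0.12, adjusted p = 0.033), then *fft1* at 1.25-fold (log2 0.32, adjusted p = 0.035), *ino80* at 1.22-fold (log2 0.29, adjusted p = 0.061) and *snf21* at 1.17-fold (log2 0.23, adjusted p = 0.099). Both treated Δ*top1* libraries were above both treated WT libraries in 6 of 10 members, these 5 and *snf22*, and below them in 1, *fft2*, beside 32.5% and 30.9% of all genes. None of the 5 reached 1.5-fold.

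For the other members the intervals of the treated strain difference spanned 0. The value was 0.19 for *snf22* (95% confidence interval -0.02 to 0.39), 0.17 for *hrp3* (-0.18 to 0.53), 0.01 for *fft3* (-0.22 to 0.24), 0.00 for *swr1* (-0.20 to 0.20) and -0.06 for *fft2* (-0.23 to 0.11). The calls of *mit1*, *hrp1*, *fft1*, *ino80* and *snf21* did not all hold when a library was left out, which leaves 1 library in a group. They were lost without treated Δ*top1* replicate 1, where the differences were 0.41, 0.36, 0.27, 0.30 and 0.22 in that order. Fits without a treated library or an untreated Δ*top1* library also called fewer of all genes. The untreated Δ*top1* libraries do not enter the treated difference, which without either of them stayed at 0.29 for *ino80* and 0.23 for *snf21*. Scaled to equal totals, the median gene of this comparison was at 0.16, and 7 members were called higher and 0 lower, beside 29.9% and 8.09% of all genes. The call of *snf21* was lost in 10 of 20 alternatives, among them DESeq2, limma without the trend, quantile normalization and the fit of the 2 compared groups alone, and that of *ino80* in the 6 that left out a treated library or an untreated Δ*top1* library.

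**Figure D4:**
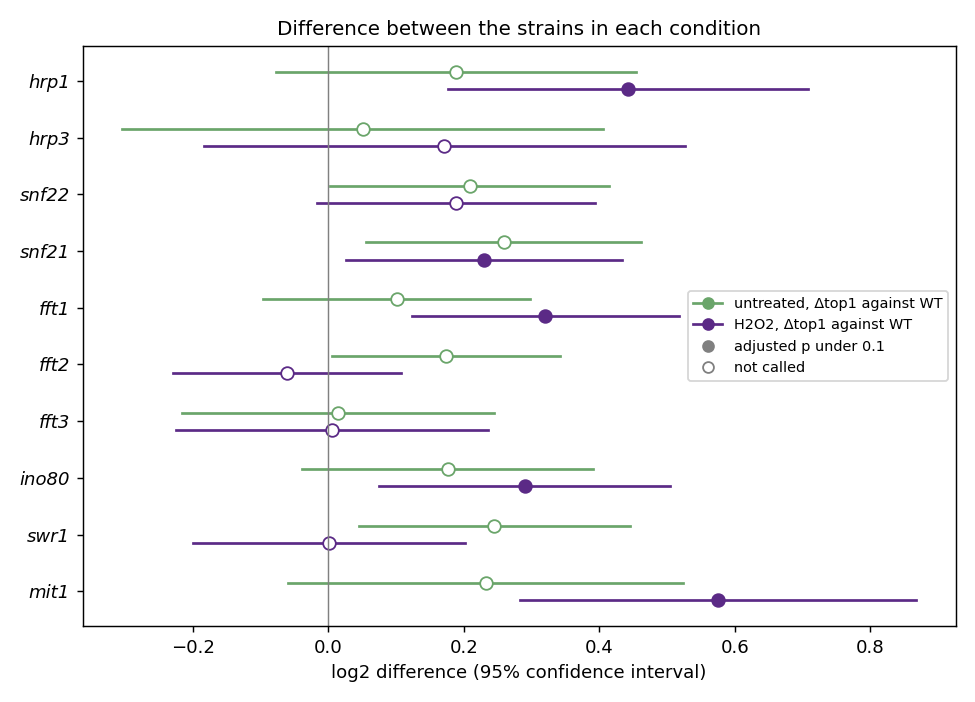
Log2 difference between Δ*top1* and WT (x axis) for each remodeler gene (y axis) in untreated cells (green) and after H2O2 (purple), with lines for the 95% confidence interval and filled points for an adjusted p under 0.1. No point is filled for untreated cells, and 5 are filled after H2O2, the furthest being *mit1* at 0.58.

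The strain by treatment interaction asked if the H2O2 response itself changed when Top1 was missing. By limma 0 of 10 members were called, beside 2.13% of all genes in the positive and 1.83% in the negative direction, and 0 of 10 had an unadjusted p under 0.05, beside 10.1% and 9.68% of all genes. edgeR and DESeq2 also called 0 of 10. The interaction values ran from -0.24 for *swr1* (95% confidence interval -0.53 to 0.04) to 0.34 for *mit1* (-0.07 to 0.76). For *hrp1* the value was 0.25 (-0.12 to 0.63), and for *fft1* 0.22 (-0.06 to 0.50). The intervals of *hrp1* and *fft1* thus include 0 as well as a fall that is 0.63 or 0.50 smaller in Δ*top1*.

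The partner subunits of these complexes, 8 other Snf2-family ATPases and 14 histone chaperones, 63 genes in all, were read in the same fit. In WT 12 rose and 24 fell with H2O2, which is 19% and 38.1% of the 63, beside 36.4% and 35.6% of all genes, and in Δ*top1* 12 rose and 17 fell, which is 19% and 27%, beside 35.9% and 34.9%. Their median differences were -0.09 in WT and -0.0019 in Δ*top1*, against the same medians over all genes as above. The list medians that follow are descriptions without a test. The alternative scalings, other tests and left-out libraries were read gene by gene for the members only. Whether the calls, counts and medians of the 63 genes hold under them was not tested. Scaled to equal totals, the median over all genes was -0.37 with H2O2 in WT and -0.20 in Δ*top1*. The counts and medians of the lists, and their contrasts between the strains, are therefore given for the deposited scale only.

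SHREC had the lowest median of the 9 lists in both strains. In WT 3 of 4 SHREC partners fell and 0 rose, with a median of -0.59, and in Δ*top1* 4 of 4 fell, with a median of -0.48. *clr2* fell by 1.11 in WT on the log2 scale (adjusted p = 1.0e-04, limma), *clr1* by 0.63 (adjusted p = 0.0017) and *chp2*, a heterochromatin protein of the HP1 type, by 0.55 (adjusted p = 0.0084). In Δ*top1* the values were -0.88 for *clr2*, -0.60 for *chp2* and -0.37 for *clr1*, and *clr3*, the histone deacetylase, was at -0.21 (adjusted p = 0.097). *mit1*, the motor of the same complex, was not called in either strain, as given above.

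The SWI/SNF partners moved with *snf22* in part. In WT 3 of 5 fell and 1 rose: *snf59* was at -0.50, *snf5* at -0.37 and *sol1* at -0.33, whereas *tfg3*, which is also found in general transcription factor complexes, was at 0.67. In Δ*top1* 2 of 5 fell and 0 rose, *sol1* at -0.38 and *snf59* at -0.27. Of the 6 RSC partners 3 fell and 1 rose in WT, and 3 fell and 2 rose in Δ*top1*. *rsc9* fell most, by 0.81 in WT and 0.51 in Δ*top1* on the log2 scale, and *rsc58* by 0.44 and 0.39. *rsc7* rose by 0.43 in WT and 0.17 in Δ*top1*, where *rsc1* rose by 0.27 (adjusted p = 0.032, limma). *rsc4* was at -0.21 in WT and -0.36 in Δ*top1*. Of the 6 subunits shared by SWI/SNF and RSC, 3 rose in WT, led by *ssr1* at 0.47, followed by *ssr4* at 0.26, and 1 fell, *arp42* at -0.36. In Δ*top1* 2 of these rose, *ssr1* at 0.48 and *ssr4* at 0.38.

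Few INO80 and SWR1 partners were called, beside 36.4% of all genes called higher and 35.6% lower in WT and 35.9% and 34.9% in Δ*top1*. Of the 63 genes *swc2* of SWR1 had the lowest fitted value in both strains. In WT it was close to that of *clr2* (-1.13, SE 0.10, and -1.11, SE 0.13). Of 9 INO80 partners 1 rose in WT, *ies4* at 0.27 (adjusted p = 0.090, limma), and 0 were called in Δ*top1*. Of 3 subunits shared by INO80 and SWR1, 0 were called in WT and 1 rose in Δ*top1*, *alp5* at 0.23. Of 8 SWR1 partners 2 fell in WT, and 1 of them, *swc2*, fell in both strains. *swc2*, whose budding yeast counterpart binds H2A.Z, was at 593 and 604 normalized counts in untreated WT and 269 and 278 after H2O2, and at 668 and 610 in untreated Δ*top1* and 234 and 250 after H2O2. It moved against *swr1*, falling by 1.13 in WT (limma, adjusted p = 2.6e-05) and by 1.40 in Δ*top1* (adjusted p = 6.9e-06) on the log2 scale. The other, *arp6*, was at -0.48 in WT.

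Among the other Snf2-family ATPases 4 rose and 3 fell in WT, and 4 rose and 4 fell in Δ*top1*. *rhp16*, the counterpart of budding yeast Rad16 in nucleotide excision repair, was at 1023 and 1056 in untreated WT and 3713 and 3354 after H2O2, and at 1595 and 1339 in untreated Δ*top1* and 2883 and 3014 after H2O2. *rad54*, a motor of homologous recombination, was at 756 and 928 in untreated WT and 2514 and 2254 after H2O2, and at 1021 and 1048 in untreated Δ*top1* and 1831 and 1857 after H2O2. Their rises were 1.76 and 1.51 on the log2 scale in WT, and 1.01 and 0.83 in Δ*top1*. The interaction was called for both, at -0.75 for *rhp16* (adjusted p = 0.054, limma) and -0.67 for *rad54* (adjusted p = 0.078). Over the 63 genes 1 interaction was called positive (1.59%) and 2 negative (3.17%), beside 2.13% and 1.83% of all genes. The largest falls of this list were those of *rrp1*, at -0.92 in WT and -0.96 in Δ*top1*, and of *rdh54* in WT, at -0.91.

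Of the 14 histone chaperones 9 fell and 2 rose in WT, with a median of -0.27, beside 35.6% lower and 36.4% higher of all genes. In Δ*top1* 3 fell and 3 rose, with a median of -0.04, beside 34.9% and 35.9%. The interaction was called for 1 of the 14, so no difference of response between the strains is read from these counts. In WT *hip4* was at -0.53 and *slm9* at -0.46, both of the HIRA complex, and *nap2* rose by 0.46. In Δ*top1* *nap2* rose by 0.52, *spt16*, a FACT subunit, rose by 0.51, and *nap1* was at -0.48. In WT *spt16* and *nap1* were also called, at 0.44 (adjusted p = 0.0089, limma) and -0.31 (adjusted p = 0.011). *slm9* was at 1274 and 1287 in untreated WT, 940 and 915 in treated WT, 1378 and 1302 in untreated Δ*top1*, and 1404 and 1311 in treated Δ*top1*. Its interaction was 0.48 (adjusted p = 0.081, limma), the only positive one called among the 63 genes.

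Between the untreated strains 0 of the 63 genes were called. Between the treated strains 9 of 63 were higher (14.3%) and 4 lower (6.35%) in Δ*top1*, beside 17.1% and 14.7% of all genes. The higher genes were *slm9* (0.55), *mot1* (0.54), *clr1* (0.40), *rsc9* (0.34), *pcf1* (0.32), *snf59* (0.28), *hip3* (0.27), *rrp2* (0.24) and *hip1* (0.23). The lower ones were *ies4* (-0.68), *tfg3* (-0.39), *rad54* (-0.37) and *rsc7* (-0.20). Some of these calls were near the threshold of 0.1, with an adjusted p (limma) of 0.0999 for *hip1*, 0.096 for *snf59*, 0.087 for *hip3* and 0.084 for *rsc7*. Of the 14 chaperones 4 were thus higher and 0 lower, beside 5 higher and 0 lower among the 10 motors.

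**Figure D5:**
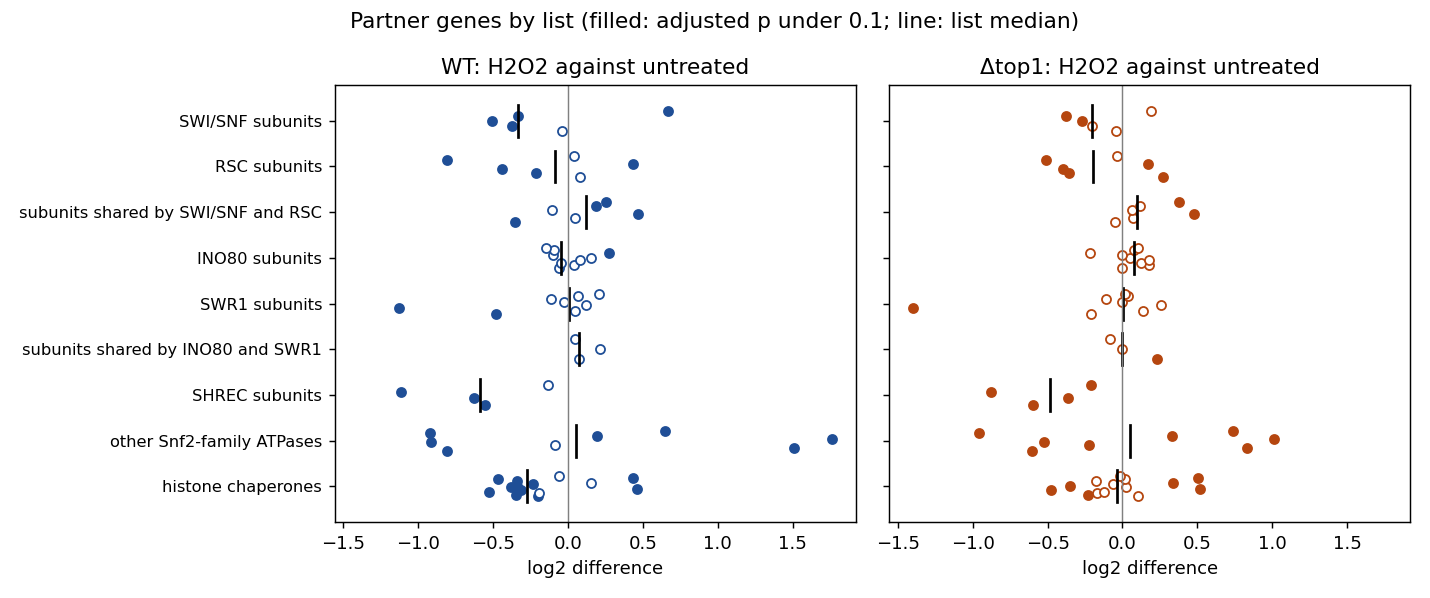
Log2 difference between H2O2 and untreated cells (x axis) for the 63 partner genes by list (y axis) in WT (left) and Δ*top1* (right), with filled points for an adjusted p under 0.1 and a line at each list's median. The SHREC median lies at -0.59 in WT and -0.48 in Δ*top1*, while the INO80 partners lie between -0.15 and 0.27 in WT.

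The genes whose profile over the 8 libraries was most like that of 3 members were found by the mean absolute difference of centred log2 values. For *hrp1* they were *pkl1* (0.046), *utp10* (0.064) and *pol1* (0.068), beside a median of 0.55 over all genes. For *hrp3* they were *pgr1* (0.057), *pre5* (0.060) and *spt16* (0.066), beside 0.35. For *snf22* they were *ent1* (0.034), *cdc23* (0.045) and *rgf2* (0.045), beside 0.33. These are descriptions over 8 libraries that share their scaling.

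In RefSeq ASM294v3, 7 members lie on chromosome I, *snf22* and *fft2* on chromosome III and *mit1* on chromosome II. Their transcripts are 3335 (*fft1*) to 6668 (*snf22*) bases long with 1 to 5 exons. None of the 31-base words of any member occurred in the transcript of another gene with values, each read on its own strand. Reverse complements were not searched. Each member overlaps 2 to 4 annotated genes on the opposite strand, which cover between 15.3% (*snf22*) and 86.7% (*mit1*) of it. For *hrp1*, *snf22*, *ino80* and *mit1*, 1 of these opposite-strand genes is itself among the genes with values. Only *hrp1* also overlaps an annotated gene on its own strand. Whether strand was used in counting is not given in the sources used here, so antisense reads cannot be told apart from those of the member.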

How the data were processed

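Poly(A) RNA of 4 groups of *S. pombe* cultures was sequenced by the authors from stranded libraries. The paper's methods name FastQC 0.11.9, Salmon 1.2.1 on the ASM294v2 transcriptome and DESeq2 1.24.0, while the submitters' processing notes list FastQC, Trimmomatic, STAR, HTSeq and DESeq2. The signal deposited by the authors is a table of normalized counts, read numbers scaled by DESeq2's factor for each library. Within each library 5164 of 5165 values (99.98%) equalled a whole number of reads within 0.01 reads, so reads were recovered and used for edgeR 4.0.16 and DESeq2 1.42.0 as alternatives.

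The test was run on log2(normalized count + 1) for genes averaging 10 or more normalized counts, using limma 3.58.1 (R 4.3.3) with 1 coefficient per group, a variance trend and Benjamini-Hochberg adjustment over all genes tested, two-sided. This scale understates changes of genes with low counts. Groups came from the sample labels. The fit was tested on simulated counts in which a small part of the genes changed, in a single group. That test does not cover the many changed genes of these data or the choice of scaling. The members and lists were chosen with earlier results of these data known. Named are all 10 members, *top1*, up to 3 genes per list with the largest called difference for each H2O2 comparison, every called list gene for each strain comparison, and the 3 genes nearest to *hrp1*, *hrp3* and *snf22*. Outside that rule are *sol1*, *rdh54*, *rsc4*, *spt16* and *nap1* in WT and *clr3*, *rsc1* and *rsc7* in Δ*top1*. They and the genes with called interactions were chosen after their values were seen, as were the ratios of paired genes. *asf1* and *rtt106* are listed under the names *cia1* and *mug183* in the deposited table.

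Alternatives were pseudocounts of 0.5 and 5, no minimum or a minimum of 50, scaling to equal totals, to the upper quartile or by quantiles, no variance trend in limma, a replicate block, a stricter adjusted p (0.05), a fold threshold of 2 (1.5 between the treated strains), only the 2 compared groups, and each library left out in turn. Annotation was from RefSeq ASM294v3, to which 5129 of 5165 genes were matched by identifier, and no coordinate was carried between builds.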

Additional observations from a re-analysis of the deposited data

Results flagged for a closer look

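For *fft2* the strains differed in opposite directions in every library. Without H2O2 both Δ*top1* libraries (2265 and 2208 normalized counts) were above both WT libraries (1932 and 2034), and after H2O2 both Δ*top1* libraries (1622 and 1619) were below both WT libraries (1693 and 1689). The first arrangement was seen in 20.7% of all genes tested and the second in 30.9%. The share of genes with both was not counted. The interaction of strain and treatment was -0.24 on the log2 scale and did not pass the test (adjusted p = 0.26, limma, n = 2 per group), and neither strain difference was called on its own. Scaled to equal totals, the treated difference of *fft2* had the opposite sign (0.09).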

How the results depend on the processing

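The H2O2 falls of *hrp1*, *fft1*, *fft2* and *snf22* kept their direction and call in both strains under all 20 alternatives run for each. The calls of *hrp3* in WT were lost in 6 of 20 and those of *swr1* in Δ*top1* in 2 of 20. Of 990 values of single members under an alternative, 902 kept direction and call, 34 lost the call, 14 gained it in the same direction and 40 changed sign. All 40 were uncalled on the deposited scale, and 3 of them, *ino80* with H2O2 in WT under the 3 other scalings, were called in the opposite direction. With a fold threshold 2 members were called in WT with H2O2, 0 in Δ*top1* with H2O2 and 0 between the treated strains. Between the treated strains 3 were called with only the 2 compared groups, beside 579 higher and 551 lower of all genes, and 3 at an adjusted p under 0.05. Some or all of the 5 calls between the treated strains were lost when a treated library or an untreated Δ*top1* library was left out. Scaled to equal totals, 1067 genes were called higher and 2823 lower with H2O2 in WT, 1352 and 2300 in Δ*top1*, and 1502 and 406 between the treated strains. With the upper quartile these were 1209 and 2636, 1345 and 2460, and 1009 and 615. The corresponding counts on the deposited scale were 1826 and 1785, 1802 and 1753, and 856 and 739.

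Sign changes under scaling to equal totals were *ino80* with H2O2 (-0.34 in WT, -0.0575 in Δ*top1*), *fft3* between untreated strains (-0.00708), *fft2* between treated strains (0.0890), and the interactions of *snf21* (0.14), *snf22* (0.15) and *fft3* (0.16). Under the upper quartile they were *ino80* with H2O2 (-0.26 in WT, -0.0846 in Δ*top1*), *fft3* between untreated strains (-0.00954), and the interactions of *snf21* (0.0359), *snf22* (0.0446) and *fft3* (0.0567). Under quantile normalization they were *ino80* with H2O2 (-0.21 in WT, -0.10 in Δ*top1*), *mit1* in WT (0.12), *fft3* between untreated strains (-0.0163) and the interaction of *fft3* (0.0472). With edgeR the interaction of *fft3* was 0.00478, and with DESeq2 *swr1* between treated strains was -0.000959. The causes were not tested. With each library left out in turn, the log2 differences with H2O2 in WT ran from -0.20 to 0.0158 for *snf21* and from -0.0935 to 0.15 for *ino80*. Between untreated strains they ran from -0.16 to 0.26 for *hrp3* and from -0.0963 to 0.12 for *fft3*, and between treated strains from -0.0897 to 0.10 for *fft3* and from -0.0901 to 0.0919 for *swr1*. The interactions ran from -0.0910 to 0.33 for *hrp3*, -0.14 to 0.0805 for *snf21*, -0.0878 to 0.0474 for *snf22*, -0.12 to 0.10 for *fft3* and -0.00982 to 0.24 for *ino80*.

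The labels give the same replicate numbers to all groups without saying what a number shares. Deviations of same-numbered libraries correlated across genes at 0.066 to 0.617 over 6 pairs of groups. With the replicate block, 7 members were called in WT and 8 in Δ*top1*, where *mit1* joined them at 0.25 (adjusted p = 0.061, limma). Between untreated strains 0 were called, between treated strains 5 and for the interaction 0. The block changed no other call of a member. Over all genes it called 1943 higher and 1924 lower in WT, and 1918 and 1913 in Δ*top1*. Between untreated strains these were 33 and 35, and between treated strains 1178 and 1121, up from 856 and 739. The interaction calls over all genes rose from 107 and 92 to 431 and 448. The member with the fewest reads, *mit1*, had at least 431 in every library.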
